A study of Mus musculus with 10 samples.

Results

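MyoD and Myf5 are closely related skeletal muscle transcription factors, and nearly every place where MyoD was found also carried a Myf5 peak. The exceptions are described here: 1074 of the 45015 MyoD peaks (2.39%, exact 95% binomial interval 2.25 to 2.53) overlapped no Myf5 peak and no peak of the Myf5 mock precipitation by even 1 bp. They are called MyoD-only peaks, and the 43888 MyoD peaks that overlapped a Myf5 peak are called shared. The remaining 53 MyoD peaks had no Myf5 peak but lay in a Myf5 mock region and were left out, because the Myf5 list holds no peak in such regions (0 of 93787). The classes were chosen by the authors' peak calls for MyoD, Myf5 and the Myf5 mock, which rest on read coverage, so the absence of Myf5, the distance to Myf5 peaks and the weakness of the MyoD-only peaks are descriptions of the choice and not results.

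All cells were mouse embryonic fibroblasts of the genotype MyoD-/-; Myf5-/-, so no endogenous copy of either factor was present, and a lentivirus brought in MyoD, Myf5 or, as the control, green fluorescent protein (GFP). Cells went into differentiation medium 24 h after infection and were taken 20 h later. MyoD was precipitated from cells with MyoD, Myf5 from cells with Myf5, and each antibody was also used on cells with GFP (the mocks). Acetylated histone H4 (H4Ac) was precipitated from all 3 populations, so the factors act here from a viral transgene in fibroblasts and not from their own genes in muscle precursors. The chromatin was prepared differently for the 2 kinds of list. Samples for the factors and mocks were crosslinked for 11 min. Those for H4Ac were digested with 15 units of micrococcal nuclease for 18 min, with no crosslinking time given. By the list titles, the MyoD and the Myf5 list each cover 2 replicates together, and every H4Ac and mock list is 1 sample. No replicate error and no test over samples can therefore be given. Each interval below is a 95% interval over peaks. It reflects the number of peaks alone, and peaks close to each other share their chromatin.

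Both belong to the basic helix-loop-helix class, form dimers with E proteins and bind the short E-box motif. Either factor can turn fibroblasts towards muscle, and MyoD carries strong activation domains that recruit histone acetyltransferases. Acetylation of histone H4 neutralises lysines in its tail and marks open, active promoters and enhancers. The lists allow a comparison of where each factor was found and of H4Ac at the same places.

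The MyoD-only peaks were weak within the MyoD list. Their maximum read coverage, the authors' height of a peak in reads, ran from 27 to 170 with a median of 32, against a median of 50 for shared peaks. The calling cutoff in this list was 27 reads for peaks of up to 50% GC and 28 or 30 above, so 85.4% of the MyoD-only peaks stood less than 1.5 times above their cutoff, against 35.4% of shared peaks. Among MyoD peaks of coverage 27 to 29, 10.4% were MyoD-only. The share was 6.72% at 30 to 32, 2.13% at 40 to 44, 0.737% at 50 to 59 and 0.0730% at 80 to 119, and no peak of 200 or more was among them. The 53 peaks in mock regions had a higher median coverage of 47 and reached 2028.

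**Figure D1:**
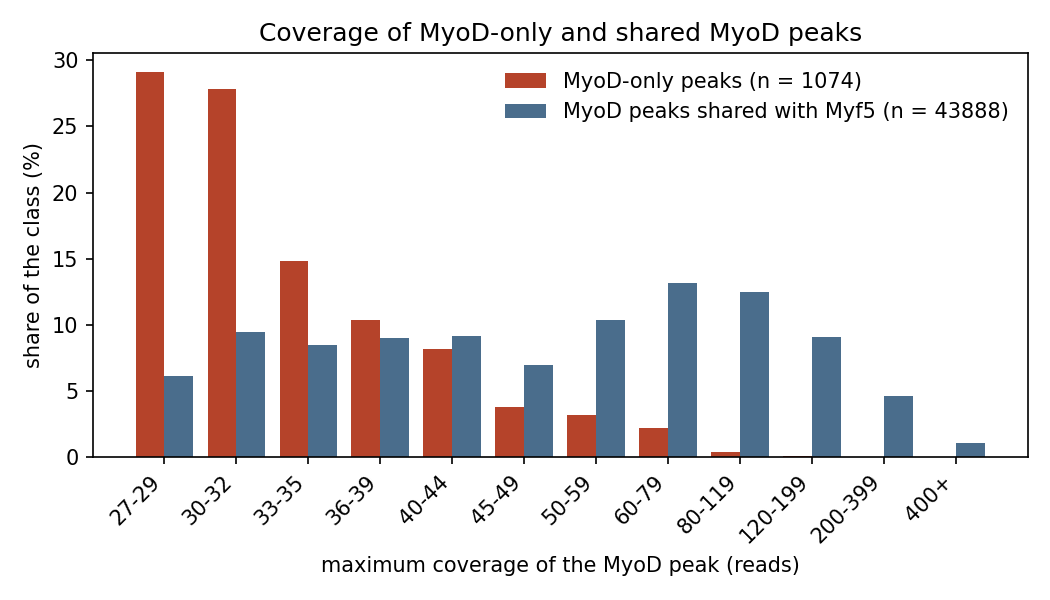
Share of each class (vertical axis, %) by maximum coverage of the MyoD peak (horizontal axis, reads) for the 1074 MyoD-only and the 43888 shared peaks. MyoD-only peaks crowd at 27 to 32 reads, while shared peaks reach far above 200.

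Because the choice makes coverage differ, shared peaks were weighted to the coverage of the MyoD-only peaks, value by value, and the shares over all MyoD peaks that are given beside them are not weighted. These coverage-matched shared peaks have the same median of 32 reads. MyoD-only peaks had a median width of 497 bp, against 555 bp for coverage-matched shared peaks. A narrower peak overlaps another less easily, so this width difference too follows in part from the rule.

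The 10 strongest MyoD-only peaks show what the class holds at its top, and 8 of them fall in the bin of at most 40% GC. The positions are those of mm9, the mouse build named in the processing notes. The first lay at chr2:90235134-90235499 and reached a coverage of 170, which ranks 3468 in the MyoD list. Its nearest Myf5 peak was 66583 bp away, and the control held 14 reads there, where the MyoD list has a median of 5. The next was chr6:3965482-3966027 (coverage 105, control 2), 9312 bp from a Myf5 peak. These 2 were the only MyoD-only peaks with a coverage of 100 or more.

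The other 8 had coverages of 71 to 96 and control coverages of 1 to 8. Those at chr19:41610435-41610888 (coverage 96), chr6:52863993-52864657 (92) and chr18:16871008-16871613 (71) had a Myf5 peak at 1523, 3473 and 2925 bp. Those at chr4:7745011-7745621 (76), chr12:38664064-38664946 (81) and chr10:103372502-103373227 (78) had the nearest one at 13841, 47435 and 54208 bp. The last pair, at chr3:6002489-6003288 (71) and chr15:91891447-91891935 (77), lay 100177 and 215259 bp from any Myf5 peak. None of the 10 overlapped an H4Ac peak in any of the 3 populations. Over all MyoD-only peaks 6.89% did, so none among 10 is close to that share. The chromosome 18 peak came nearest: an H4Ac peak of cells with MyoD began directly at its edge, and those of cells with GFP and Myf5 lay 168 and 178 bp away.

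Most MyoD-only peaks lay kilobases from Myf5 binding. The median gap to the nearest Myf5 peak was 7196 bp, with 25% within 2318 bp and 75% within 27201.2 bp. Only 18 lay within 100 bp and 97 (9.03%) within 500 bp, whereas 453 (42.2%) had none within 10000 bp and 177 (16.5%) none within 50000 bp. The median coverage was 32 for gaps up to 500 bp and 32 for gaps over 50000 bp, while the highest coverage was 60 and 170. By coverage, the median gap was 7024 bp at 27 to 30 reads, 5608 bp at 31 to 34 and 10202 bp at 35 or more. Of the 160 with a Myf5 peak within 1000 bp, the neighbouring Myf5 peak overlapped a different MyoD peak in 92 cases (57.5%). In the Myf5 list as a whole, 50729 of 93787 peaks had no MyoD peak and no MyoD mock peak, so most of that list overlapped no MyoD peak.

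The peaks nearest to the boundary of the rule, 3 on each side, were mostly weak in the MyoD list. The smallest gaps were 1 bp at chr17:28828796-28829268 (MyoD coverage 29, nearby Myf5 coverage 43), 1 bp at chr4:45961104-45961778 (32 and 97) and 2 bp at chr14:113973951-113974628 (30 and 54). The smallest overlaps among shared peaks were 25 bp at chr3:80840483-80841081 (30 and 41), 45 bp at chr3:6382206-6382798 (70 and 129) and 50 bp at chr1:92293912-92294904 (32 and 114). The most remote MyoD-only peaks were weak: coverage 30 at chrX:3846594-3846947, 28 at chr18:28380649-28380999 and 49 at chr4:78875538-78875900. They lay 2178041, 2051209 and 1634576 bp from a Myf5 peak, and the chromosome 4 peak had a control coverage of 18.

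Among the properties compared that the rule does not use directly, base composition differed most in percentage points. As a ratio to coverage-matched shared peaks, the share with a control coverage of 10 or more differed more (5.59 against 2.37 for at most 40% GC). Base composition is not wholly outside the rule, because Myf5 coverage differed between GC bins, as given below. MyoD-only peaks were poor in G and C: 479 of 1074 (44.6%, 41.6 to 47.6) had at most 40% GC, the lowest bin of the list, against 15.1% of all MyoD peaks and 18.8% (18.3 to 19.3) of coverage-matched shared peaks. The difference was 25.8 percentage points (22.8 to 28.8). The bins of 40 to 45% and 45 to 50% GC held correspondingly less, 29.0% and 17.1% against 36.1% and 32.2%. Above 55% GC the shares were 1.40% and 1.48%, a difference of -0.0856 points (-0.802 to 0.631).

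**Figure D2:**
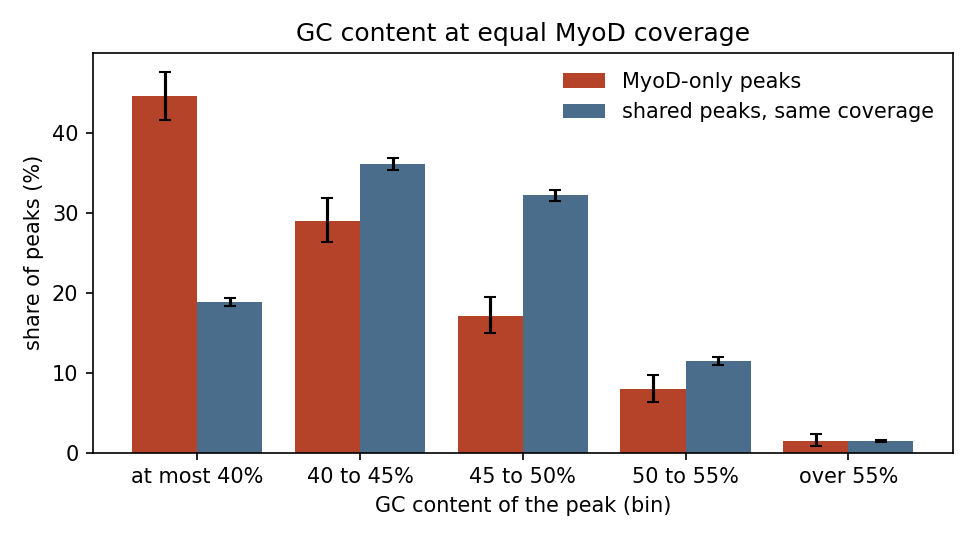
Share of peaks (vertical axis, %) in the 5 GC bins of the list (horizontal axis), for MyoD-only peaks and for shared peaks weighted to the same coverage; bars show 95% counting intervals. The bin of at most 40% GC holds 44.6% of MyoD-only and 18.8% of shared peaks.

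GC-poor peaks were most frequent among the MyoD-only peaks far from Myf5 binding. With the class divided by coverage, 43.2% (38.4 to 48.1) of peaks at 27 to 30 reads, 38.5% (33.1 to 44.2) at 31 to 34 and 51.7% (46.3 to 57.1) at 35 or more were in the lowest bin. Of the 63 peaks with a coverage of 50 or more, 40 were in it. By distance, 34.0% (24.7 to 44.3) of those within 500 bp of a Myf5 peak and 76.3% (69.3 to 82.3) of those over 50000 bp away were GC-poor. GC-poor sites were sparse among shared peaks too. Their coverage-matched median gap to another MyoD peak was 17780 bp, against 9837 bp at 40 to 45% GC and 7083 bp at 45 to 50%.

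Both lists held about the same share of GC-poor peaks, 15.1% for MyoD and 13.9% for Myf5, and used the same cutoff of 27 reads in that bin. Myf5 coverage was lower there, however. At shared peaks with a MyoD coverage of at most 37, the median Myf5 coverage was 57 (quartiles 43 and 77) in the lowest GC bin, against 65, 67, 70 and 72 in the bins above it. The median MyoD coverage of the same peaks was 32 in the 3 lowest bins and 33 and 34 in the others. The share of these shared peaks with a Myf5 coverage of 35 or less was 11.2% in the lowest bin and 1.52% to 6.22% in the others. The Myf5 cutoff was 29 reads at 50 to 55% GC and 32 above, so fewer coverages can count there. In the bins of 40 to 45% and 45 to 50% GC, which have the cutoff of 27 reads too, the shares were 6.22% and 5.38%. The part of this in the GC content of MyoD-only peaks was not tested. Seen from the other list, the 50729 Myf5 peaks with no MyoD peak and no MyoD mock peak were not GC-poor: 13.3% were in the lowest bin, and 14.8% of the 22138 of them with a Myf5 coverage of at most 37.

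MyoD-only peaks also stood apart from the rest of MyoD binding. The median gap to the nearest other MyoD peak was 16477 bp, against 8722 bp for coverage-matched shared peaks. That nearest peak was a shared one for 983 of the 1074 (91.5%). The gap is therefore not independent of the distance to Myf5 peaks and may follow in part from the rule. No other MyoD peak lay within 10000 bp of 657 (61.2%, 58.2 to 64.1) of them, against 43.2% of all MyoD peaks and 46.6% (45.8 to 47.4) of coverage-matched shared peaks, a difference of 14.6 points (11.6 to 17.6). Weighted for GC bin as well, the difference was 8.82 points (5.76 to 11.9), and for MyoD-only peaks of at least 1.5 times their cutoff it was 25.3 (18.0 to 32.5). The difference was uneven over GC bins. Median gaps of MyoD-only and coverage-matched shared peaks were 34244 and 17780 bp in the lowest bin. They were 12548 and 9837 bp at 40 to 45% GC, and 7958 and 7083 bp at 45 to 50%. At 50 to 55% they were 10272 and 4411 bp, and over 55%, with 15 MyoD-only peaks, 3096 and 3571 bp. For 86 of the 1074 (8.01%) the nearest other MyoD peak was itself MyoD-only, against 2.08% for shared peaks.

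**Figure D3:**
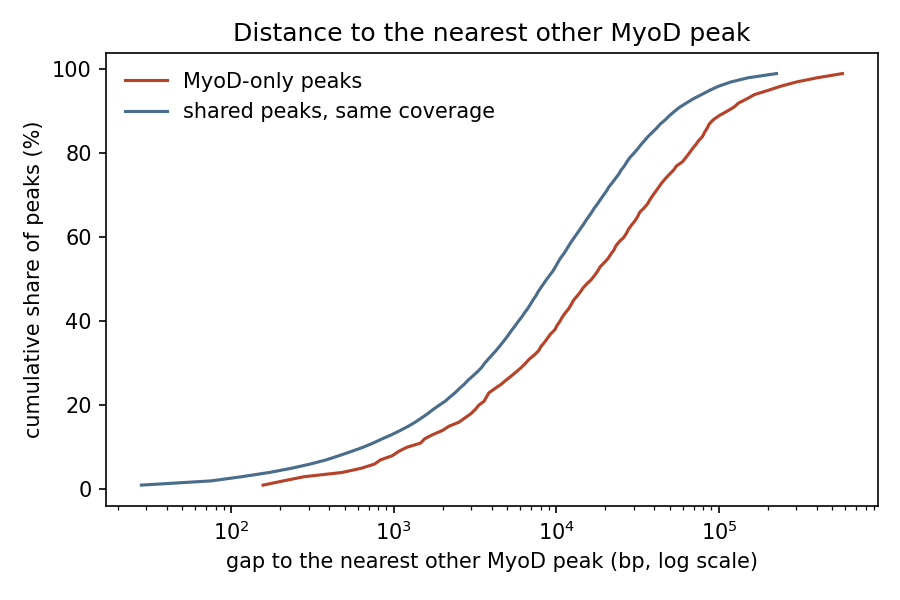
Cumulative share of peaks (vertical axis, %) by the gap to the nearest other MyoD peak (horizontal axis, bp, log scale), for MyoD-only peaks and coverage-matched shared peaks. The MyoD-only curve lies to the right throughout, with medians of 16477 and 8722 bp.

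They were spread over all 19 autosomes and the X chromosome, at shares that differed from those of coverage-matched shared peaks on several chromosomes. Chromosome 3 held more (7.54% against 5.58%, with an interval of the difference from 0.331 to 3.58 points). Chromosomes 2, 11 and 7 held less, with differences of -2.35 (-3.82 to -0.876), -2.33 (-3.57 to -1.09) and -1.65 points (-2.71 to -0.600). Chromosome 10 had the largest excess and held 119 (11.1%, 9.26 to 13.1), against 7.20% of all MyoD peaks and 6.20% (5.82 to 6.57) of coverage-matched shared peaks, a difference of 4.88 points (2.97 to 6.80), or 2.83 (1.07 to 4.59) without the window named next. Of the 119, 26 lay between 100 and 110 Mb, the most in any window of 10 Mb, where the next highest count was 14. In that window 26 of 116 MyoD peaks (22.4%, 15.2 to 31.1) were MyoD-only. Over the 267 windows with at least 20 MyoD peaks the median was 2.16%, and 8 windows were over 10%. Next to it by share, with far fewer peaks, stood chromosome 1 from 110 to 120 Mb with 5 of 23 (21.7%). The window was chosen after its values were seen. The median control coverage of MyoD peaks was 6.0 or 7.0 in every 10 Mb window of chromosome 10, against 5 in the whole MyoD list. Some windows of other chromosomes also had 6.0. Among peaks with a control coverage at or below the list median, the chromosome 10 excess was 3.10 points (1.14 to 5.07). The part of control coverage in the excess was not tested.

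The chromosome 10 window was itself GC-poor, with 22 of its 26 MyoD-only peaks and 72.7% of its 88 shared peaks in the lowest bin. Among GC-poor MyoD peaks, 25.6% (16.8 to 36.1) were MyoD-only inside the window and 6.82% (6.23 to 7.45) elsewhere. The lists held 1.38 Myf5 peaks per MyoD peak there, against 2.08 overall. Its MyoD-only peaks had coverages of 27 to 78 with a median of 34 and a median control coverage of 5.50. Of the 26, 1 overlapped an H4Ac peak in any population, close to the 6.89% of all MyoD-only peaks. More generally, 23 windows in which at least 50% of the MyoD peaks were GC-poor held MyoD-only peaks at 8.67% (7.37 to 10.1), or 7.66% (6.39 to 9.08) without the chromosome 10 window, against 2.13% (1.99 to 2.27) in the other 244. On the X chromosome lay 25 MyoD-only peaks (2.33%, 1.51 to 3.42), against 1.83% of all MyoD peaks and 2.17% (1.91 to 2.42) of coverage-matched shared peaks.

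The authors give a control coverage beside each MyoD peak, and which control library it comes from is not given in the sources used here. It was low at most of the class. Its median was 5, against 4 for coverage-matched shared peaks. A control coverage of 10 or more was found at 35 MyoD-only peaks (3.26%, 2.28 to 4.50), against 1.74% of all MyoD peaks and 0.583% (0.511 to 0.654) of coverage-matched shared peaks. The highest values were 20 at chr3:63320229-63320739 (coverage 50), 20 at chrX:53359843-53360208 (coverage 65) and 19 at chr5:126320538-126320898 (coverage 52). The X chromosome peak lay 1638 bp and the chromosome 5 peak 401 bp from a MyoD mock peak. The 35 peaks were not weak, with a median coverage of 46. None overlapped an H4Ac peak in any population, against 6.89% of all MyoD-only peaks. With only 35 peaks, none is not clearly apart from that share. No peak of the MyoD list, and so no MyoD-only peak, overlapped a MyoD mock peak. Of the MyoD-only peaks, 11 lay within 10000 bp of a Myf5 mock peak and 14 within that distance of a MyoD mock peak. These are 1.02% and 1.30%, against 0.194% and 0.183% of coverage-matched shared peaks.

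The H4Ac lists took no part in choosing the peaks. MyoD-only peaks were acetylated less often than shared peaks of the same coverage, in all 3 populations. In cells with GFP, 49 of 1074 (4.56%, 3.39 to 5.99) overlapped an H4Ac peak, against 14.4% of all MyoD peaks and 11.8% (11.3 to 12.3) of coverage-matched shared peaks. In cells with MyoD the count was 54 (5.03%, 3.80 to 6.51), against 18.6% of all MyoD peaks and 12.7% (12.2 to 13.2) of coverage-matched ones. In cells with Myf5 it was 57 (5.31%, 4.04 to 6.82), against 15.1% and 11.8% (11.3 to 12.3). The differences were -7.20 points (-8.54 to -5.86) with GFP, -7.66 (-9.06 to -6.26) with MyoD and -6.53 (-7.97 to -5.10) with Myf5. The Myf5 peaks with no MyoD peak and no MyoD mock peak overlapped H4Ac at 8.18%, 8.20% and 8.27% in the 3 populations, and those with a Myf5 coverage of at most 37 at 7.71%, 7.62% and 7.89%. These are also below the shares of the coverage-matched shared peaks, with no matching of their own.

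**Figure D4:**
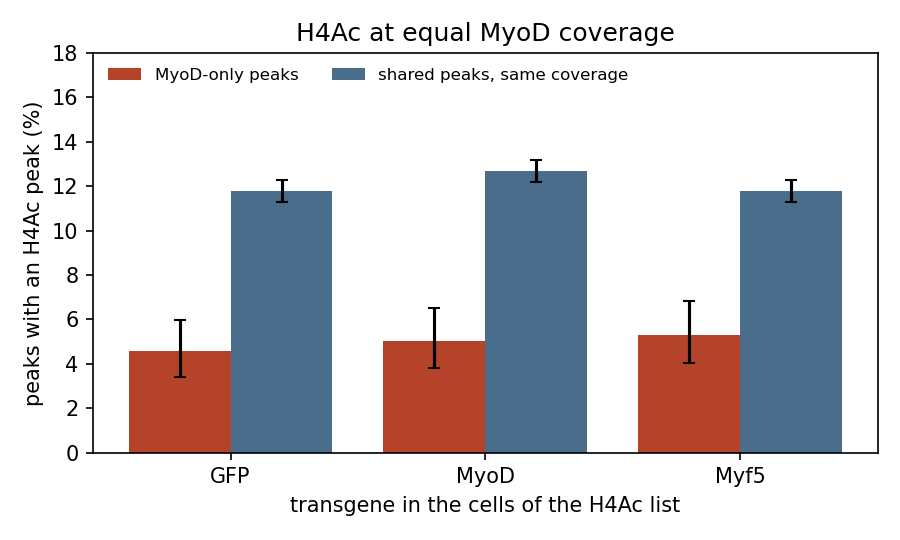
Share of peaks that overlapped an H4Ac peak (vertical axis, %) in the lists of cells with GFP, MyoD and Myf5 (horizontal axis), for MyoD-only and coverage-matched shared peaks; bars show 95% counting intervals. MyoD-only peaks reach 4.56% to 5.31% and shared peaks 11.8% to 12.7%.

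The difference was smaller with GC bin in the weighting, and its interval stayed below 0. Weighted for coverage and GC bin together, the differences were -5.00 (-6.34 to -3.65), -5.80 (-7.21 to -4.38) and -5.21 points (-6.66 to -3.76). A narrower peak also overlaps H4Ac less easily. Weighted for classes of coverage and width, the differences were -6.21 (-7.54 to -4.87), -6.91 (-8.30 to -5.51) and -5.65 points (-7.07 to -4.22). In the lowest GC bin 10 of 479 MyoD-only peaks (2.09%, 1.01 to 3.81) overlapped H4Ac in cells with MyoD, against 7.79% (6.83 to 8.75) of coverage-matched shared peaks in that bin. At 45 to 50% GC the shares were 8.70% (5.05 to 13.7) and 17.0% (16.0 to 18.1). Above 50% GC no difference was detectable: 15 of 100 MyoD-only peaks (15.0%, 8.65 to 23.5) and 15.5% (13.9 to 17.0), a difference of -0.468 points (-7.64 to 6.70). With 100 peaks that interval is wide and does not show that the shares were equal.

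The stronger MyoD-only peaks were no more often acetylated than the weaker ones. In cells with MyoD the shares were 5.94% (3.88 to 8.64) at 27 to 30 reads, 5.50% (3.24 to 8.66) at 31 to 34 and 3.49% (1.82 to 6.01) at 35 or more. These intervals overlap. Coverage-matched shared peaks rose with coverage, at 11.5% (10.5 to 12.5), 12.2% (11.2 to 13.1) and 14.7% (14.1 to 15.2). The differences were -5.54 points (-8.01 to -3.06) in the weakest class and -11.2 (-13.2 to -9.14) in the strongest. They are not weighted for GC bin. GC-poor peaks made up 43.2%, 38.5% and 51.7% of MyoD-only peaks in these classes. Among all shared peaks of the same classes, unweighted, they made up 18.5%, 14.4% and 13.8%. The part of GC content in the widening was not tested. Of the 63 MyoD-only peaks with a coverage of 50 or more, 2 had an H4Ac peak in any population, against 6.89% of all MyoD-only peaks. With only 63 peaks, that count is not clearly apart from that share.

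**Figure D5:**
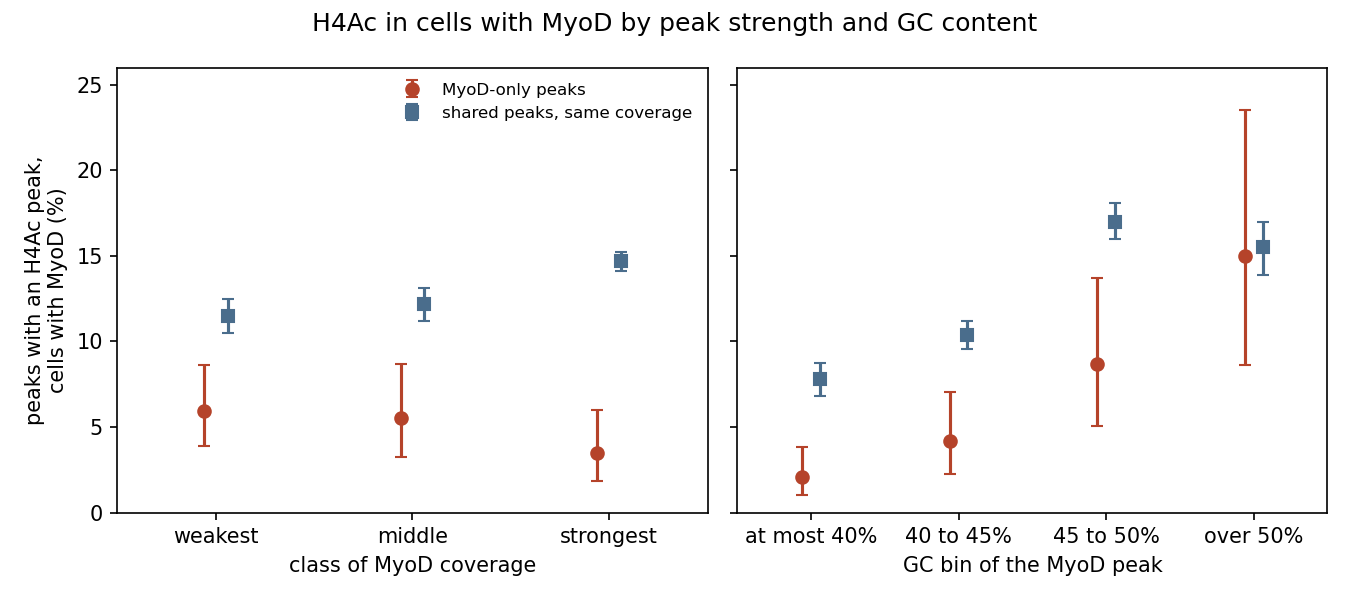
Share of peaks with an H4Ac peak in cells with MyoD (vertical axis, %) by class of MyoD coverage (left: 27 to 30, 31 to 34, 35 or more reads) and by GC bin (right), for MyoD-only peaks (circles) and coverage-matched shared peaks (squares) with 95% counting intervals. The gap is widest in the strongest class, and above 50% GC the intervals overlap. The coverage classes on the left are not weighted for GC bin.

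Distance from Myf5 binding went with acetylation as well. In cells with MyoD 9.28% (4.33 to 16.9) of the 97 peaks within 500 bp of a Myf5 peak had an H4Ac peak, 7.43% (4.91 to 10.7) of the 350 at 501 to 5000 bp, 4.00% (2.39 to 6.25) of the 450 at 5001 to 50000 bp and 0.565% (0.0143 to 3.11) of the 177 beyond. The share of GC-poor peaks in these classes was 34.0%, 29.7%, 46.0% and 76.3%, and its part in the order was not tested. The surroundings were poorer in H4Ac too. An H4Ac peak of cells with MyoD lay within 5000 bp of 17.6% (15.4 to 20.0) of MyoD-only and 29.7% (29.0 to 30.4) of coverage-matched shared peaks.

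Across the 3 populations, 74 MyoD-only peaks (6.89%, 5.45 to 8.57) had an H4Ac peak in at least 1, against 21.6% of all MyoD peaks and 15.9% (15.3 to 16.4) of coverage-matched shared peaks. The difference was -8.99 points (-10.6 to -7.38). In 38 (3.54%, 2.52 to 4.82) the peak was called in all 3 populations, against 8.55% (8.12 to 8.97). A call with MyoD and not with GFP was made at 11 (1.02%, 0.512 to 1.83), against 2.86% (2.61 to 3.11) of coverage-matched shared peaks. The reverse, with GFP and not with MyoD, applied to 6 (0.559%, 0.205 to 1.21), against 1.94% (1.73 to 2.15). Of the patterns with 1 population alone, 7 had H4Ac with MyoD only and 5 with GFP only, against 16.3 and 13.4 at the coverage-matched rate, while 14 had it with Myf5 only, against 13.5.

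H4Ac calls in GC-poor MyoD-only peaks were most frequent in cells with Myf5. In the lowest GC bin, 21 MyoD-only peaks (4.38%, 2.73 to 6.62) had an H4Ac peak in cells with Myf5, against 8 (1.67%, 0.724 to 3.26) with GFP and 10 (2.09%) with MyoD. Coverage-matched shared peaks in that bin had 8.45%, 5.72% and 7.79%. The H4Ac list of cells with Myf5 as a whole was richer in GC-poor peaks, at 19.2% against 13.3% with GFP and 13.1% with MyoD. The part of the list's composition in these counts was not tested.

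Where H4Ac was called at a MyoD-only peak, its height was not lower than at shared ones. The median H4Ac coverage stood at 1.64, 1.74 and 1.69 times the cutoff with GFP, MyoD and Myf5, against 1.62, 1.57 and 1.56 times at coverage-matched shared peaks. The highest H4Ac coverage with MyoD was at chr15:31531324-31532304, a MyoD peak of coverage 28, with H4Ac coverages of 186 (GFP), 199 (MyoD) and 201 (Myf5). Coverages from different lists are not on 1 scale and are given side by side only.

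The next highest H4Ac with MyoD was also already called with GFP. A MyoD-only peak at chr15:74539039-74539969 (MyoD coverage 40) had H4Ac coverages of 149, 166 and 138 with GFP, MyoD and Myf5. One at chr10:122423413-122423838 (MyoD coverage 38) had 256, 145 and 92. Those at chr1:173957446-173957880 (MyoD coverage 30) and chr10:114687973-114688909 (34) had 164, 141 and 169, and 167, 134 and 113. The 5 peaks lay above 45% GC and at MyoD peaks of 28 to 40 reads.

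The strongest MyoD-only peak with H4Ac in all 3 populations was chr8:69205263-69205768, of MyoD coverage 69, which had H4Ac coverages of 28, 32 and 41. It was 71 bp from a Myf5 mock peak. Among peaks acetylated in a single population, the strongest with H4Ac in cells with MyoD only was at chr10:44384972-44385961 (MyoD coverage 40), with an H4Ac coverage of 22. With Myf5 only it was at chr1:117090433-117090948 (MyoD coverage 46, H4Ac coverage 23), and with GFP only at chr12:74213340-74214005 (35 and 32).

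Combinations of 2 populations were found at 5 peaks or fewer each, where GFP only, MyoD only and Myf5 only had 5, 7 and 14. H4Ac with both factors and not with GFP was found at 4 MyoD-only peaks (0.372%, 0.102 to 0.951), against 1.35% (1.16 to 1.54) of coverage-matched shared peaks. The strongest was chr1:57803305-57803865, of MyoD coverage 41, which had H4Ac coverages of 26 with MyoD and 22 with Myf5. H4Ac with GFP and MyoD was found at 5 peaks, the strongest at chr3:89577148-89577435 (MyoD coverage 38, H4Ac coverage 46 with GFP and 24 with MyoD), which lay 141 bp from a Myf5 peak. At the coverage-matched rate it would be 13.8. With GFP and Myf5 there was 1, against 7.42, at chr6:120124861-120125217 (MyoD coverage 28, H4Ac coverage 26 with GFP and 57 with Myf5).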

How the data were processed

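Peaks of 7 lists (MyoD, Myf5, H4Ac in 3 populations and 2 mocks) were used; 3 input samples entered no comparison. The submitters' processing notes name CASAVA 1.8.2, BWA 0.7.5 and, with no role stated, the builds mm9 and hg19; the peak caller is not given in the sources used here. Positions are read as mm9 and were not converted. No mm9 sequence or annotation was used here, so no genes or sequences are named. Per the file headers, the authors' signal is the maximum coverage in a peak, with a cutoff per GC bin and the coverage of a control. The authors' deposited p-values ran up to 8.56e-06 for MyoD peaks and 8.10e-06 for Myf5 peaks. Control p-values above 1 occur and were not used, nor was 1 placeholder control coverage. Depth per sample is unknown.

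The peaks and comparisons were chosen with earlier results of these data known. Overlap needed 1 bp; gaps count the bases between peaks. Shared peaks were weighted at each coverage value to the number of MyoD-only peaks there. Intervals of shares are exact (Clopper-Pearson); those of weighted shares and differences use a normal approximation. The named positions follow a rule: the 10 highest coverages, the strongest peak of each H4Ac pattern, the 5 highest H4Ac coverages with MyoD, the 3 highest control coverages, and the 3 nearest to and farthest from a Myf5 peak, with the 3 smallest overlaps. The overlap and gap step and the weighted share were tested on simulated data, and the other steps were not. The software was scipy 1.17.1, matplotlib 3.10.9, pandas 2.3.3 and numpy 2.4.6 in Python 3.11.15.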

Additional observations from a re-analysis of the deposited data

How the results depend on the processing

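No paired analysis was possible because each group has 1 list and the replicates of the factor lists were deposited together. The number of MyoD-only peaks stayed within 1.5 times of 1074 under all 4 other overlap and mock rules. The H4Ac deficit kept its direction, with an interval below 0, in all 17 alternatives for each population, and the GC-poor excess kept its direction in all 11 that apply to it. Sizes moved. The H4Ac shares with GFP, MyoD and Myf5 were 6.05%, 7.08% and 6.89% for H4Ac within 500 bp, and 2.89%, 3.35% and 3.17% for H4Ac peaks of at least 1.5 times the cutoff. They were 2.55% (GFP) and 3.18% (MyoD) for the 157 MyoD-only peaks of at least 1.5 times the cutoff, 6.01% (GFP) with control coverage at or below the median, and 6.67% (MyoD) when a Myf5 overlap counted from 50% of the peak. The differences from shared peaks with GFP, MyoD and Myf5 were -10.1, -13.9 and -10.00 points without weighting, -10.8, -12.2 and -9.18 for the stronger MyoD peaks, and -4.31, -3.99 and -3.57 for the stronger H4Ac peaks. With GFP and MyoD they were -8.90 and -9.08 for H4Ac within 500 bp and -5.00 and -5.80 weighted for GC bin too. Weighted for GC bin and distance to other MyoD peaks, an alternative added after seeing the data, they were -4.77 and -5.92. The GC-poor excess was 43.8 points for the stronger MyoD peaks and 30.3 without weighting. Other alternatives added after seeing the data left out the chromosome 10 window or control coverages of 10 or more, and neither moved these values beyond their intervals. Without the window, the chromosome 10 excess was 2.83 points in place of 4.88. The excess of control coverages of 10 or more, 2.68 points, was 14.0 for the stronger MyoD peaks and 5.42 with the peaks in mock regions kept. Depth is unknown, so a Myf5 signal below its cutoff cannot be told apart from none.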
